A study of Mus musculus with 2 samples.

Results

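Transforming growth factor beta (TGF-beta) genes were followed in ureters of mouse embryos at E14.5 that had lost Rbpj in the ureteric mesenchyme. The set holds 8 genes chosen by name: the ligand genes Tgfb1, Tgfb2 and Tgfb3, the receptor genes Tgfbr1, Tgfbr2 and Tgfbr3, and the target genes Tgfbi and Ctgf (Ctgf is also named Ccn2). They are 8 of 30011 gene names on the array and are represented by 13 of its 39429 probes, of which 12 passed the filter on dim probes. All 8 genes were among the 20495 genes tested.

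Rbpj-cKO embryos were Tbx18(cre/+);Rbpj(fl/fl), so that a Cre recombinase made from 1 of the Tbx18 alleles removes Rbpj where Tbx18 is expressed. Controls were Rbpj(fl/?), with no Cre allele listed, and the strain was NMRI. The labels do not settle whether controls carried the Cre allele, so its effect and the loss of Rbpj cannot be told apart here. There were 2 arrays, each with Rbpj-cKO and control RNA together. Replicate 1 compared male embryos with Rbpj-cKO in AlexaFluor647 (red), and replicate 2 compared female embryos with Rbpj-cKO in AlexaFluor555 (green). Sex and dye orientation thus change together between the arrays, and the labels do not say whether the RNA of a channel came from 1 embryo or several. The p-values rest only on the spread between these 2 arrays, which limma moderates for each gene towards that of all genes.

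TGF-beta ligands are secreted as latent dimers held in the matrix and are released by integrins and proteases. The active ligand binds the type II receptor (Tgfbr2), which phosphorylates the type I receptor (Tgfbr1), and the signal reaches the nucleus through Smad2, Smad3 and Smad4. The type III receptor (Tgfbr3, betaglycan) presents ligand to the others. In mesenchymal organs the pathway is known for its part in matrix production and smooth muscle differentiation, and Notch signalling, which acts through Rbpj, shares several of its target genes. Setting the genotypes side by side asks whether loss of Rbpj in the mesenchyme leaves these transcripts at another level.

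Values are log2 levels (the normalized intensity of a channel) or log2 ratios (Rbpj-cKO over control on 1 array). Each probe has 4 spots per array. Levels are compared only within a probe. Between 67.7% and 70.1% of the spots were well above background in the 4 channels. Rbpj, the targeted gene, had log2 ratios of -1.13 and -0.63 by its brighter probe and of -0.48 and -0.37 by the other. Where these probes lie with respect to the floxed part of Rbpj is not stated in the labels. The ratios of all genes correlated negatively between the arrays (r = -0.35 across genes, which are not independent replicates), and no gene passed the test: 0 of 20495 genes had a limma adjusted p under 0.05, and 372 had an unadjusted p under 0.05. Every listed marker of ureteric mesenchyme and smooth muscle (11 of 11) and of urothelium (15 of 15) was above background, as were 12 of 12 macrophage, 11 of 12 skeletal muscle and 11 of 12 erythroid markers. Fewer cells of a type and less RNA per cell cannot be told apart in such bulk RNA.

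The probes of the ligand genes Tgfb1 and Tgfb2 and 1 probe of Tgfbr2 are shown because they read protein-coding sequence and because the ligand probes cover corresponding stretches. Each is written 5′ to 3′ as on the array. The Tgfb1 probe lies at chr7:26489877-26489936 (mm9, plus strand), the Tgfb2 probe at chr1:188449333-188449392 (minus strand) and the Tgfbr2 probe at chr9:115999496-115999555 (minus strand). Capitals mark, in the ligand probes, the bases that are identical when the probes are laid over each other without gaps, and in the Tgfbr2 probe the stop codon that ends the coding sequence.
Tgfb1: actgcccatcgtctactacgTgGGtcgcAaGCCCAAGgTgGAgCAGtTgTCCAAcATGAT
Tgfb2: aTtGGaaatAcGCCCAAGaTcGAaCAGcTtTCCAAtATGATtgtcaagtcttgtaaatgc
Tgfbr2: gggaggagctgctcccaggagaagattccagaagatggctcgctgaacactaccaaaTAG
Both ligand probes read the part of the transcript that encodes the receptor-binding end of the ligand, which is conserved in the family. Over the 41 bases of overlap, 28 were identical (68.3%), and the longest identical run was 7 bases.

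Among the ligands, Tgfb3 was slightly lower in Rbpj-cKO on both arrays (0.15 and -0.45 with median centring, so that the sign on replicate 1 turned), while Tgfb1 and Tgfb2 had opposite ratios on the arrays. None of the 3 passed the test. Tgfb1 encodes the ligand made by many cell types, including immune cells and platelets. Its log2 level was 9.82 in Rbpj-cKO and 9.29 in control on replicate 1, and 9.04 in Rbpj-cKO and 9.47 in control on replicate 2. The genotypes overlapped, with Rbpj-cKO holding both the highest and the lowest channel, and the red channel was the brighter on both arrays. The log2 ratios were 0.53 and -0.43, with spot SDs of 0.014 and 0.072, and every kept spot lay on its array's side of 0. The mean was 0.05 ± 0.68 (SD, n = 2; limma adjusted p = 0.99998, the value of all 8 members), and the 95% interval of -0.50 to 0.60 allows a difference of up to 1.51-fold upwards. The difference between the arrays was 0.96, which 1.99% of all genes exceeded in size (limma adjusted p = 0.21 over all genes). For this difference 0% of all genes had an adjusted p under 0.05 and 21% an unadjusted p under 0.05.

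Marker levels of other cell types stood beside Tgfb1 as follows. The 11 skeletal muscle markers were all above 0 on replicate 1 and below 0 on replicate 2, the signs of Tgfb1. Their summed intensity was 29045 in Rbpj-cKO and 15029 in control on replicate 1, and 14440 and 38593 on replicate 2. The summed intensity of 11 erythroid markers was 676500 in Rbpj-cKO and 400080 in control on replicate 1, and 302630 and 618660 on replicate 2. Of these 11 markers, 8 had the signs of Tgfb1 and 3 were below 0 on both arrays. For 7 platelet and megakaryocyte markers the sum was 5590 and 4878 on replicate 1, and 4302 and 4931 on replicate 2, with the defining markers Itga2b and Gp1ba not well above background. Of these 7, 4 had the signs of Tgfb1, 2 (Gp6 and Ppbp) the reverse, and 1 was below 0 on both. The 12 macrophage and leukocyte markers summed to 28391 and 21279 on replicate 1, and to 23503 and 22557 on replicate 2. Of these 12, 6 had the signs of Tgfb1 and 6 were above 0 on both arrays, with medians of 0.47 and -0.0030. Of all genes, 34.3% had the signs of Tgfb1, 34.9% the reverse, 16.1% were above 0 on both arrays and 14.7% below 0 on both. The part of these cell types in the ratios of Tgfb1 was not tested.

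Tgfb2 encodes a ligand prominent in mesenchyme and epithelium of developing organs. By its coding probe shown above, its log2 level was 14.09 in Rbpj-cKO and 14.34 in control on replicate 1, and 14.12 and 14.06 on replicate 2. The genotypes overlapped, and the control of replicate 1 stood highest. This gave log2 ratios of -0.25 and 0.06 and averaged -0.10 ± 0.22 (SD, n = 2; 95% interval -0.44 to 0.25). Its second probe (chr1:188447534-188447593, mm9, minus strand) gave -0.24 and 0.11. The probes of Tgfb2 thus gave the same signs on each array.

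Tgfb3, a ligand known from palate and lung development, was measured by 1 probe (chr12:87397804-87397863, mm9, minus strand). Its log2 level was 14.74 in Rbpj-cKO and 14.86 in control on replicate 1, and 14.55 and 14.73 on replicate 2. Each control lay above the Rbpj-cKO of its own array, but the Rbpj-cKO of replicate 1 lay above the control of replicate 2. With log2 ratios of -0.12 and -0.17, Tgfb3 averaged -0.15 ± 0.038 (SD, n = 2; 95% interval -0.46 to 0.16). Of all genes, 5.34% had a lower mean.

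**Figure D1:**
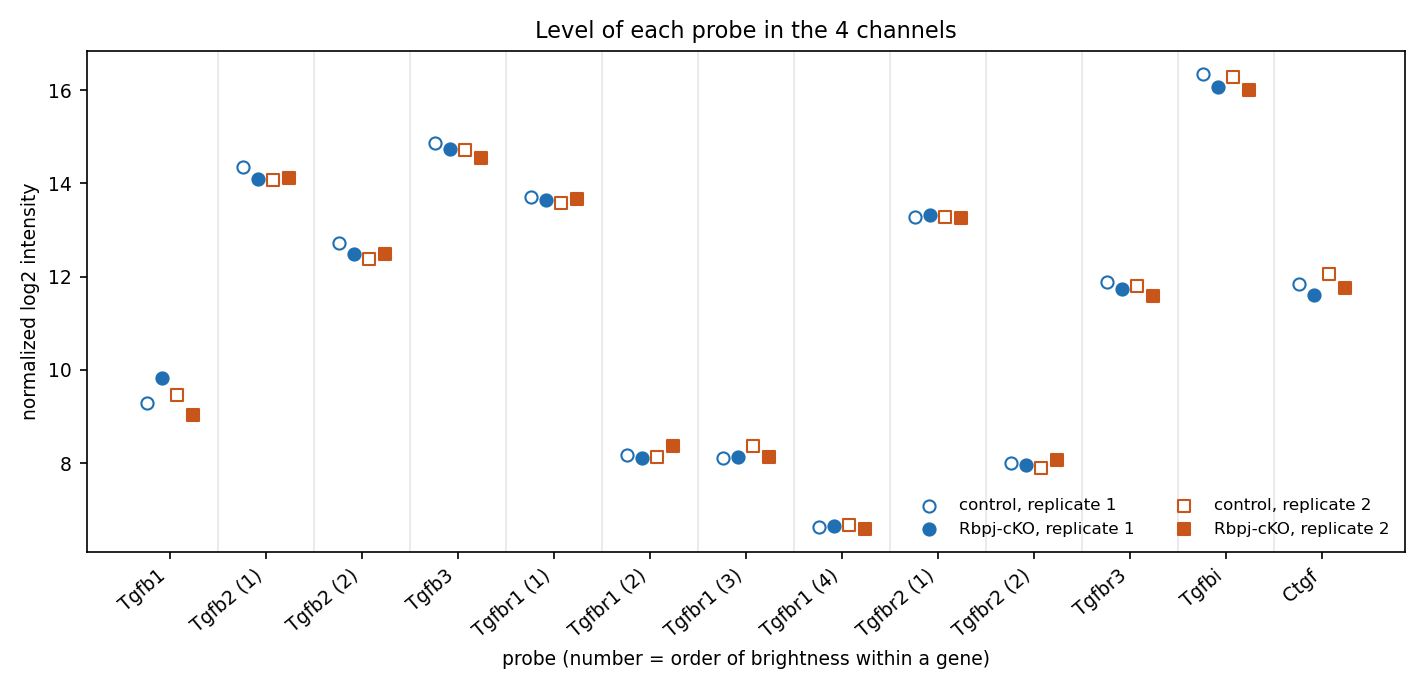
Normalized log2 intensity (vertical axis) of each of the 13 probes (horizontal axis) in the 4 channels; open symbols are control and filled symbols Rbpj-cKO, circles replicate 1 and squares replicate 2. For Tgfbr3, Tgfbi and Ctgf both filled symbols lie below both open ones, as for 8.44% of all genes. Tgfb1 has its highest and its lowest channel in Rbpj-cKO.

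Among the receptors, Tgfbr3 had small negative ratios on both arrays, and the signalling receptors Tgfbr1 and Tgfbr2 had mean ratios close to 0. None passed the test. Tgfbr3 (chr5:107535818-107535877, mm9, minus strand) had log2 levels of 11.73 in Rbpj-cKO and 11.89 in control on replicate 1, and of 11.59 and 11.80 on replicate 2. Both Rbpj-cKO channels lay below both control channels, as for 8.44% of all genes. Its log2 ratios of -0.16 and -0.21 averaged -0.18 ± 0.038 (SD, n = 2), and the 95% interval of -0.49 to 0.13 bounds a decrease at 1.41-fold. Of all genes, 3.44% had a lower mean.

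Tgfbr1, the type I receptor and kinase that phosphorylates the Smads, was read by 4 probes. The brightest (chr4:47427736-47427795, mm9, plus strand) had log2 levels of 13.64 in Rbpj-cKO and 13.72 in control on replicate 1, and of 13.68 and 13.58 on replicate 2. The genotypes overlapped. This probe's log2 ratios were -0.08 and 0.10, a mean of 0.01 ± 0.13 (SD, n = 2; 95% interval -0.31 to 0.33). A second RefSeq probe (chr4:47424946-47425005) gave -0.06 and 0.25. A probe designed on an Ensembl transcript (chr4:47395833-47395892) gave the opposite signs, 0.03 and -0.23. Another such probe (chr4:47374114-47374173) was well above background on 2 of 4 spots per channel on replicate 1 and on 1 of 4 on replicate 2, and did not pass the filter. The probes of Tgfbr1 therefore disagreed in sign, and the ratios of the dim ones rest on levels between 8.10 and 8.37.

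Tgfbr2, the type II receptor that binds the ligand, had log2 levels of 13.32 in Rbpj-cKO and 13.28 in control on replicate 1, and of 13.25 and 13.27 on replicate 2, by its brighter probe (chr9:115997155-115997214, mm9, minus strand). The 4 channels lay closer together than those of any other member's representative probe. Between genotypes the log2 ratios were 0.05 and -0.02, a mean of 0.01 ± 0.047 (SD, n = 2), and the 95% interval of -0.30 to 0.33 bounds an increase at 1.25-fold. The dimmer coding probe shown above gave -0.05 and 0.18. Its spots were well above background in all 4 channels.

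**Figure D2:**
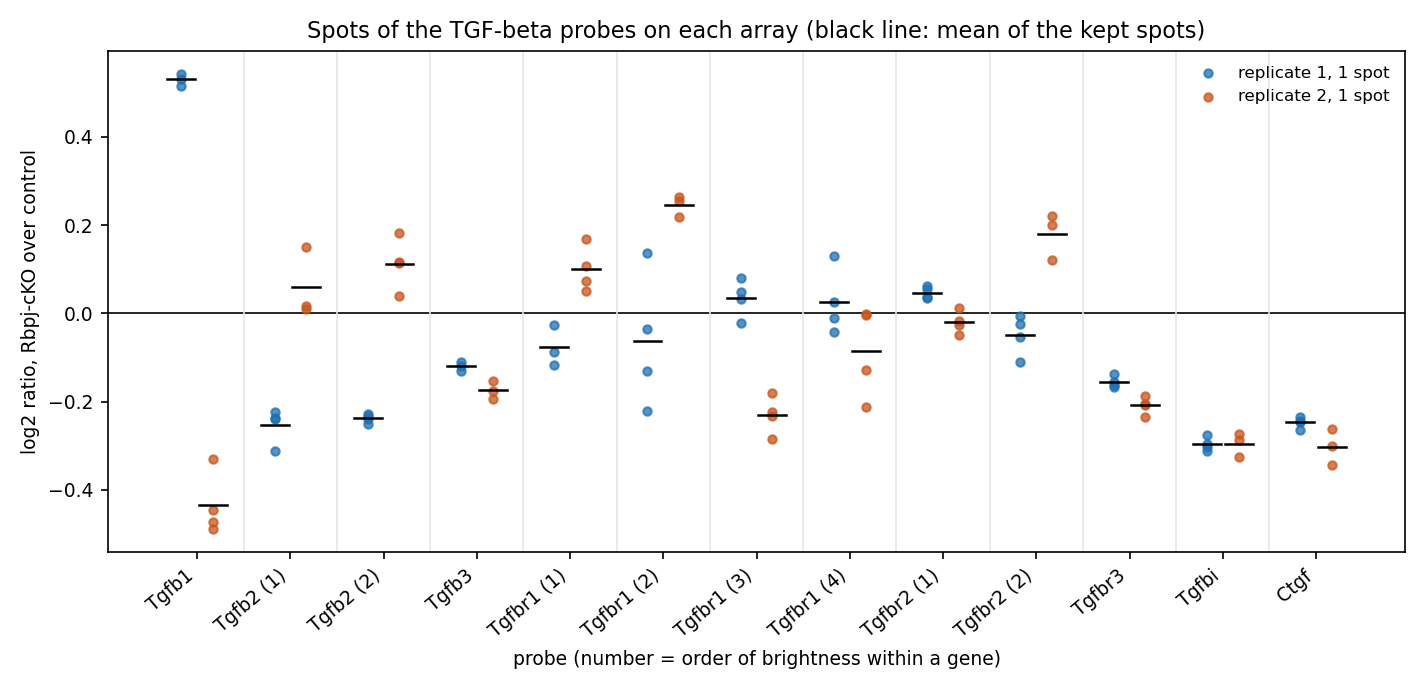
Log2 ratio of Rbpj-cKO over control (vertical axis) for every kept spot of the 13 probes (horizontal axis), replicate 1 in blue and replicate 2 in orange, with the mean of the kept spots as a black line. The spots of Tgfb3, Tgfbr3, Tgfbi and Ctgf lie below 0 on both arrays, and those of Tgfb1 lie above 0 on replicate 1 and below 0 on replicate 2.

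The target genes Tgfbi and Ctgf had the lowest mean ratios of the 8 members, about 1.2-fold lower in Rbpj-cKO with nearly equal values on both arrays. Neither passed the test. The near equality was lost with median centring and no correction for intensity, where the pairs were 0.09 and -0.68 for Tgfbi and -0.09 and -0.48 for Ctgf. Tgfbi encodes a secreted matrix protein with fasciclin domains, first found as a TGF-beta-induced gene. Its log2 level (chr13:56740460-56740519, mm9, plus strand) was 16.06 in Rbpj-cKO and 16.36 in control on replicate 1, and 15.995 and 16.29 on replicate 2. Both Rbpj-cKO channels lay below both control channels, a trait of 8.44% of all genes. Its log2 ratio was -0.30 on each array (mean -0.30 ± 0.00043, SD, n = 2), which is 1.23-fold below control with a limma adjusted p = 0.99998. This SD between arrays was smaller than the SDs between spots, 0.015 and 0.027. The 95% interval of -0.61 to 0.02 includes 0 and bounds a decrease at 1.52-fold. Of all genes, 0.976% had a lower mean and 2.1% a smaller p. The 4 kept spots of replicate 1 ranged from -0.31 to -0.28, and the 3 of replicate 2 from -0.33 to -0.27.

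Ctgf encodes a secreted CCN-family protein of the matrix that is induced by TGF-beta and by the Hippo effector YAP. Its log2 level (chr10:24318281-24318340, mm9, plus strand) was 11.60 in Rbpj-cKO and 11.85 in control on replicate 1, and 11.76 and 12.06 on replicate 2. Both Rbpj-cKO channels lay below both control channels here too (8.44% of all genes). It had log2 ratios of -0.25 and -0.30, averaging -0.27 ± 0.039 (SD, n = 2; 95% interval -0.59 to 0.04), or 1.21-fold below control, with a limma adjusted p = 0.99998. Of all genes, 1.2% had a lower mean. In the authors' deposited table the folds of Rbpj-cKO against control were -1.26 and -1.19 for Tgfbi and -1.19 and -1.24 for Ctgf, where a minus sign marks a lower value in Rbpj-cKO.

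Beside these lower ratios stood the following marker levels. The 11 markers of ureteric mesenchyme and smooth muscle had median log2 ratios of -0.08 and -0.24. Of these, 5 (Foxf1, Sox9, Myocd, Cnn1 and Actg2) were below 0 on both arrays (14.7% of all genes were). Myocd, a master regulator of smooth muscle genes, had -0.67 and -1.04. Another 5 (Tbx18, Tcf21, Tshz3, Acta2 and Myh11) had opposite signs on the arrays, and Tagln was above 0 on both, with 0.24 and 0.10. The summed intensity of the 11 markers was 72461 in Rbpj-cKO and 69703 in control on replicate 1, and 61707 and 74244 on replicate 2. The sum was thus higher in Rbpj-cKO on 1 array and lower on the other, while the median ratio was below 0 on both. For macrophages, which can express Tgfbi, the markers are given above. The 12 markers of neural crest, neurons and glia summed to 198360 in Rbpj-cKO and 116070 in control on replicate 1, and to 126240 and 101360 on replicate 2. That sum was above control on both arrays. Of these 12 markers, 11 were above 0 on both arrays (16.1% of all genes were), and 1 had opposite signs. The part of these cell types in the ratios of Tgfbi and Ctgf was not tested.

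As a set, 4 of the 8 members (Tgfb3, Tgfbr3, Tgfbi and Ctgf) were below 0 on both arrays, against 14.7% of all genes, and 0 of 8 were above 0 on both, against 16.1% of all genes. Of the others, Tgfb1 and Tgfbr2 were above 0 on replicate 1 and below 0 on replicate 2 (34.3% of all genes), and Tgfb2 and Tgfbr1 the reverse (34.9% of all genes). Each of the 4 genes below 0 on both arrays was measured by 1 probe, so none has a second probe to set beside it. The median mean log2 ratio of the members was -0.12, against -0.0033 over all genes. None of the 8 passed limma at an adjusted p under 0.05 (0% of all genes) or at an unadjusted p under 0.05 (1.82% of all genes), and 0 of 8 were at least 1.5-fold different the same way on both arrays (0.195% of all genes, with 0.132% higher and 0.0634% lower). Of the 8 members, 3 (Tgfbr3, Tgfbi and Ctgf) had both Rbpj-cKO channels below both control channels, and 0 had both above, against 8.44% and 10.4% of all genes. With the arrays centred on their medians and no correction for intensity, Tgfb3 had 0.15 and -0.45 and Tgfbi 0.09 and -0.68, so that neither was below 0 on both, while Tgfb2 was, with -0.03 and -0.18. Under that setting the means were -0.15 for Tgfb3 and -0.29 for Tgfbi, against -0.15 and -0.30.

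**Figure D3:**
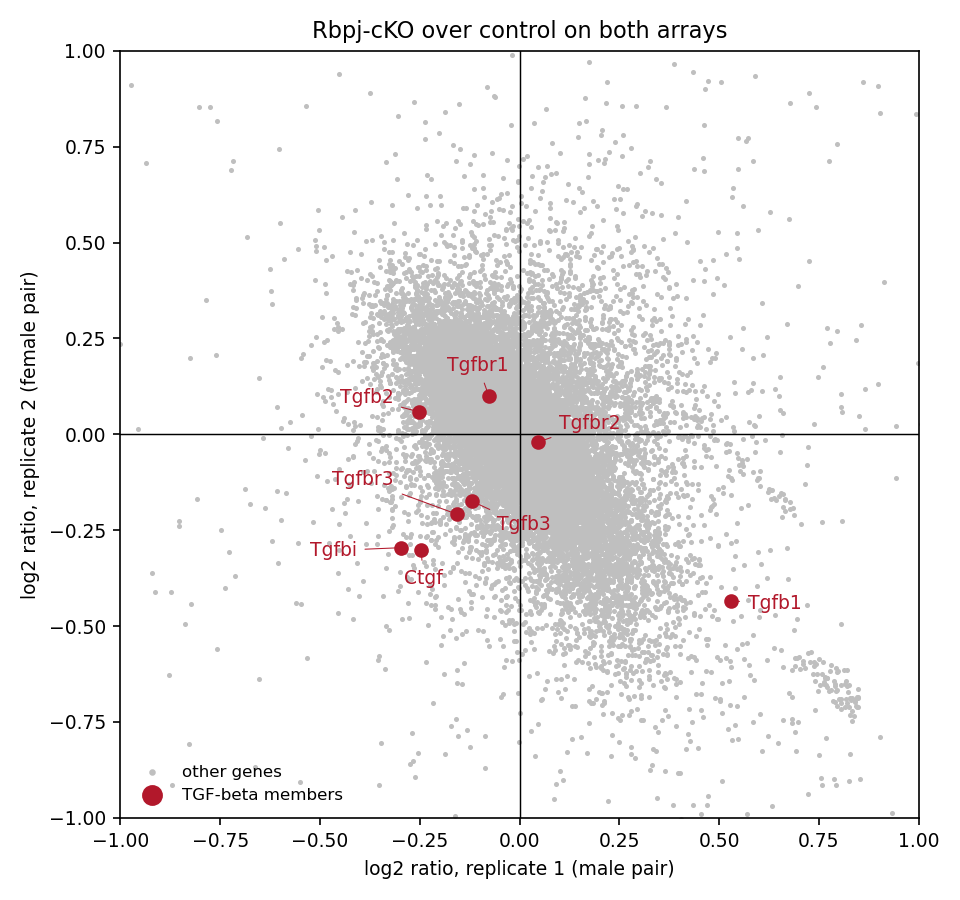
Log2 ratio of Rbpj-cKO over control on replicate 1 (horizontal axis) and replicate 2 (vertical axis), with the 8 members in red and the other tested genes in grey; 171 genes lie outside the plotted range. Tgfbi and Ctgf lie at the lower left, where both ratios are below 0, and Tgfb1 at the lower right.

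Genes that store, activate, transduce or answer TGF-beta were taken as 6 lists from textbook knowledge of the pathway. Together, 122 of their 130 genes passed the filter on dim probes, and 0 of 122 had an unadjusted limma p under 0.05 in either direction, against 1.29% of all genes higher and 0.527% lower. None was at least 1.5-fold different the same way on both arrays. On both arrays 16 were above 0 and 16 below 0, 13.1% each, against 16.1% and 14.7% of all genes, and 70 (57.4%) were above 0 on replicate 1 and below 0 on replicate 2, against 34.3% of all genes. Skeletal muscle and erythroid markers had the same pattern, with medians of 0.65 and -1.25 for 11 skeletal muscle markers and of 0.25 and -0.59 for 11 erythroid ones. Their part in the pathway lists was not tested. In this pattern the red channel was also the brighter on both arrays. Sex and dye orientation change together between the arrays and cannot be told apart in it.

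For storage and activation of the latent ligand, 3 of 20 genes were above and 3 below 0 on both arrays, with median ratios of 0.12 and -0.09. Ltbp2, a latent TGF-beta binding protein of the matrix, had -0.15 and -0.43, and Thbs1, thrombospondin, which can activate the latent ligand, had 0.19 and 0.28. The integrin subunit genes Itgb1 and Itgb6 had 0.11 and -0.37, and -0.13 and -0.08. Ltbp1, which tethers the latent complex, had 0.12 and 0.05, and Itgb8 was not well above background. Thbs1 was thus the member of this list with the highest mean, 0.23, and Ltbp2 that with the lowest, -0.29.

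Among 22 signal transducers and co-receptors, 2 were above and 2 below 0 on both arrays, and the medians were 0.02 and -0.0042. Zfyve9, an anchor that brings Smads to the receptor, had -0.02 and 0.81, so its mean of 0.39 rests on 1 array. Ep300, a coactivator, had -0.06 and -0.24. The endothelial type I receptor Acvrl1 had 0.08 and 0.07, and the adaptor Sptbn1 0.09 and 0.04. The Smads that carry the signal had opposite signs on the arrays, with -0.26 and 0.13 for Smad2, -0.02 and 0.09 for Smad3, and 0.25 and -0.19 for Smad4.

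Of 18 inhibitors and feedback genes, 3 were above and 3 below 0 on both arrays, with medians of 0.02 and -0.12. Bgn, a proteoglycan that binds TGF-beta, had -0.07 and -0.40, and the nuclear corepressor Tgif2 had -0.08 and -0.29. Dcn, another such proteoglycan, had 0.29 and 0.0031, and Fstl3, a follistatin-like activin antagonist, 0.41 and -0.07. Smad7, the inhibitory Smad induced by TGF-beta itself, had 0.09 and 0.09, a mean of 0.09 ± 0.0025 (SD, n = 2). The feedback gene Skil had -0.10 and 0.04. Smad7, also a target of the pathway, thus had ratios above 0 where those of Tgfbi and Ctgf were below 0, and none of the 3 passed the test.

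Among 34 response genes, 4 were above and 6 below 0 on both arrays, and the medians were 0.09 and -0.12. Cnn1, the smooth muscle protein calponin, had the smallest p of the list with -0.29 and -0.31, a mean of -0.30 ± 0.014 (SD, n = 2; limma adjusted p = 0.99998). It is also among the smooth muscle markers above. Cilp had 0.00029 and -0.73, the cell cycle inhibitor Cdkn2b -0.0068 and -0.57, and Igfbp3 0.03 and -0.54, so their lower means come from replicate 2. Postn, a fasciclin-domain relative of Tgfbi, had 0.03 and -0.02. Acta2, smooth muscle actin, had 0.52 and -0.77. The ratios of Postn thus lay within 0.03 of 0 on both arrays, unlike those of Tgfbi and Ctgf, and this difference between genes was not tested.

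The CCN family and the YAP response genes, to which Ctgf also belongs, gave 1 of 14 above and 0 below 0 on both arrays, with medians of 0.10 and -0.15. Ccn1 (Cyr61), a CCN-family relative of Ctgf and YAP target, had 0.17 and -0.10, and Ccn3 0.51 and -0.15. Ankrd1 had 0.05 and -0.75, Amotl2 0.08 and -0.31, and Amotl1 -0.24 and 0.12. Ctgf itself had -0.25 and -0.30, and its difference from these genes was not tested. In the activin and GDF branch, 3 of 14 genes were above and 2 below 0 on both arrays, with medians of 0.04 and -0.06. Tdgf1, a co-receptor, had 0.02 and 0.34, the activin subunit Inhba 0.13 and 0.10, the receptor Acvr2b -0.06 and 0.31, and Nodal -0.19 and -0.02.

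**Figure D4:**
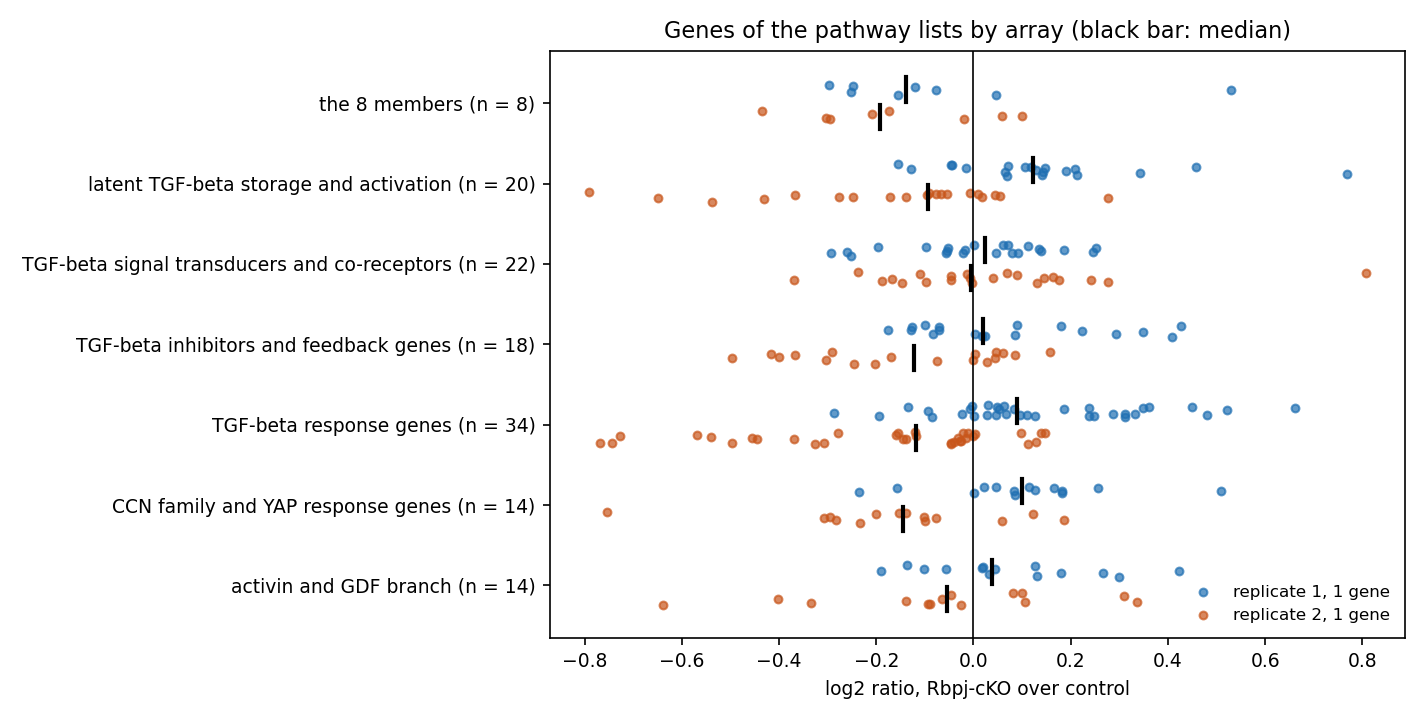
Log2 ratio of Rbpj-cKO over control (horizontal axis) of each gene of the 8 members and of the 6 pathway lists, replicate 1 in blue above replicate 2 in orange, with black bars at the medians. The medians of the members are below 0 on both arrays (-0.14 and -0.19), while those of the response genes are 0.09 and -0.12.

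The genes whose pair of ratios lay nearest to that of Tgfbi, by Euclidean distance over the 2 arrays, were Sntg2 (-0.29 and -0.29, distance 0.006), Phospho1 (-0.30 and -0.31, distance 0.014) and Cnn1 (-0.29 and -0.31, distance 0.015). In all, 13 genes lay within 0.05 of Tgfbi. With 2 arrays such nearness is a description only. Hey1, a Notch target, had 0.81 and 1.36, and Tbx18, the driver gene, 0.17 and -0.24.

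RefSeq promoter windows (GRCm38.p6, 250 bases before to 50 after a start) were held for 5 of the 8 members, as 6 windows. The upstream part of the Tgfbi window is shown because Tgfbi had the lowest mean ratio and TGF-beta acts on its targets through Smad binding to DNA. It spans chr13:56609336-56609585 on the plus strand, and capitals mark CAGAC, the core of the Smad motif, on either strand.
Tgfbi: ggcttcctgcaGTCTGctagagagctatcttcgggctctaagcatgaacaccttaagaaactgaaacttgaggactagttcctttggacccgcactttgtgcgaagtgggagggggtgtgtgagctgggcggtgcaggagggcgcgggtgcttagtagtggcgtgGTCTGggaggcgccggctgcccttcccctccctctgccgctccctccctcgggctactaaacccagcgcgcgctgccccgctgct
The motif occurred 2 times in this stretch, and it was held by 4 of the 6 member windows and by 49.6% of all 32851 windows. TGGGAA, the core of the motif bound by Rbpj, searched on both strands, was in 0 of the 6 member windows and in 25.6% of all windows. GGAATG, the motif of the TEAD partners of YAP, was in 0 of 6 and in 14.7% of all. Matches to TGGGAA and GGAATG can overlap in GGAA. A match in such a window is a description of the letters and not a site of binding.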

How the data were processed

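RNA of 2 arrays was read, each a 2-colour Agilent array with both genotypes; 150 ng of total RNA was the input per labelling, per the labels' protocols. The authors deposited, per the file headers, each spot's mean and background intensity on a linear scale, processed intensities, their log10 ratio of red over green and, as other values, flags of 0 or 1 (the submitters' processing notes name Agilent Feature Extraction 10.7.3.1). The series table deposited by the authors holds a score per probe, read as a signed fold change because no value lies between -1 and 1 and because it ran with the processed ratios (r = 0.782 and 0.849). How it was normalized is unknown here, and it was used as an alternative.

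The normexp method (offset 50) was used for background, and ratios were normalized by loess within each array in limma 3.58.1 (R 4.3.3), with weight 0 for control spots and outlier spots left out. Ratios of replicate 2 were turned to Rbpj-cKO over control. Channel levels come from the same values after Aquantile scaling between the arrays. A probe was kept where both arrays had a channel with 2 or more of its 4 spots well above background (26980 of 39429 probes), and the brightest kept probe stood for a gene. Mean ratios were tested against 0 with lmFit and eBayes (two-sided, Benjamini-Hochberg over 20495 genes, 1 residual and 5.57 prior degrees of freedom), and the 95% intervals use that moderated error. The procedure was tested on simulated data with noise drawn independently for each array. The ratios here correlated negatively between the arrays, so that test does not show the error rate for these data. Probes were named through RefSeq accessions (28328), symbols (3400) or the file's name (7701).

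The members, lists and naming rule were chosen with earlier results of these data known. The rule names all members, the 4 genes of each list with the smallest p, list genes at least 1.5-fold different the same way on both arrays, 11 fixed genes (1 of them is not reported here) and the 3 nearest to the member whose mean ratio lies farthest from 0. Smad2, Smad3 and Smad4 and the members of the marker lists were added after their values were seen. The difference between the arrays was tested the same way, also added after seeing the data. Alternatives were the processed signals, median centring, no filter or a stricter one, the mean over probes, outlier spots kept, another moderation, the authors' table, each array alone and every probe as its own feature.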

Additional observations from a re-analysis of the deposited data

Results flagged for a closer look

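In 5 probes of 4 members every kept spot lay on one side of 0 on replicate 1 (male pair) and on the other on replicate 2 (female pair). By their mean ratios, 34.3% of all genes were above 0 on replicate 1 and below 0 on replicate 2, and 34.9% the reverse. How many other probes meet the rule on every kept spot was not computed. The difference of replicate 1 minus replicate 2 was 0.964 for Tgfb1, -0.312 and -0.35 for the brighter and the dimmer probe of Tgfb2, -0.177 for the brightest probe of Tgfbr1 and -0.229 for the dimmer probe of Tgfbr2. With limma over all genes the adjusted p of this difference was 0.21 for Tgfb1, 0.32 for Tgfb2 and 0.39 for Tgfbr1, and it was not tested for probes that did not stand for their gene. Sex and dye orientation cannot be told apart in it.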

How the results depend on the processing

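Over 8 alternatives, each of the 8 members kept the sign of its mean log2 ratio, and 0 members passed under any of them or with every probe tested on its own (an alternative chosen after seeing the data). The mean of Tgfbi ranged from -0.302 to -0.289 (unadjusted p 0.023 to 0.26) and that of Ctgf from -0.288 to -0.274 (0.03 to 0.24), with adjusted p values of 0.9999 or above in each. The 4 members below 0 on both arrays became 3 with median centring. Leaving out each replicate gave -0.434 to 0.53 for Tgfb1, -0.253 to 0.0588 for Tgfb2, -0.077 to 0.0999 for Tgfbr1, -0.0201 to 0.0468 for Tgfbr2 and -0.192 to -0.138 for the members' median. The other 4 members kept their sign.

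Genes past the threshold numbered 2 with the scanner software's processed signals (Gm19410 and 9430037G07Rik) and 5 with intensity trend and robust moderation (both of these, D030062O11Rik, Mdfi and Ren2), named after their values were seen. Genes at least 1.5-fold different the same way numbered 40, but 88 with the processed signals and 85 with the authors' series table. Genes at an unadjusted p under 0.05 numbered 372, but 172 with median centring. The cause of these shifts was not tested. With 1 array left there is no test, and counts were not recomputed. Each array pairs Rbpj-cKO with control, so the test of ratios against 0 is already paired, and no unpaired fit was run. The number of arrays limits the precision.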
